A study of Homo sapiens with 6 samples.

Results

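The genes described here are 10 genes of the smooth muscle contractile apparatus and its transcription factor: ACTA2, ACTG2, TAGLN, TAGLN2, CNN1, MYL9, TPM1, TPM2, CALD1 and SRF. They were chosen by name and matched 10 of the 21533 gene rows of the deposited tables. The RNA sequenced came from LX-2, a human hepatic stellate cell line kept here in 2% serum. There were 3 samples transfected with PERK siRNA and 3 with control siRNA. Cells of both groups received palmitic acid, a saturated fatty acid, and were collected 24 h later, so no untreated cells enter any comparison and a single line stands for the cell type. PERK, encoded by EIF2AK3, is a kinase that senses stress in the endoplasmic reticulum. Samples held 17937141 to 19585872 exon reads. The floor used for detection, 3 reads, came to 0.153 to 0.167 CPM (counts scaled to a common library size) and covers counting error only. The labels do not say whether the 3 samples of a group were grown as separate cultures. The p-values therefore measure only how far these samples lie apart, and that spread may be technical.

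Stellate cells lie beside the liver sinusoids and, when activated, become contractile myofibroblasts that assemble stress fibres. In such fibres myosin pulls on actin filaments, tropomyosins lie along the filaments, and calponin, caldesmon and transgelin bind them and tune contraction. Many genes of this apparatus carry the CArG box, the DNA element bound by serum response factor (SRF), whose partners myocardin and the MRTF proteins switch them on.

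The siRNA target was lower in each treated sample. EIF2AK3 reached only 4.37, 4.96 and 5.52 CPM with PERK siRNA, against 12.9, 13.0 and 13.9 CPM with control siRNA (log2 fold change -1.42, SE 0.10, adjusted p = 3.0e-13 by edgeR's quasi-likelihood test). CPM are normalised by TMM factors throughout, and a log2 fold change is PERK siRNA over control siRNA. DES, a classical stellate and muscle marker, had at most 1 read in any PERK siRNA sample and 0 in every control siRNA sample, while the stellate-associated PDGFRB (38.8 ± 0.892 CPM and 43.7 ± 1.69 CPM; PERK siRNA and control siRNA, SD, n = 3 each) and VIM were present. LRAT, another stellate marker of the list, had at most 5 reads in a PERK siRNA sample and 4 in a control siRNA sample. Of 7 hepatocyte markers, ALB, APOA1, APOB, TTR and CYP3A4 were at 0 in all samples. SERPINA1 was present (3.76 ± 0.529 CPM with PERK siRNA and 4.28 ± 0.624 CPM with control siRNA; SD, n = 3 each; log2 change -0.19, adjusted p = 0.26), and TF had at most 7 reads in a PERK siRNA sample and 9 in a control siRNA sample.

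Most of the contractile genes were higher with PERK siRNA. ACTA2, TAGLN, CNN1, ACTG2, MYL9, TPM2, CALD1 and SRF rose, and TAGLN2 and TPM1 fell. The rises ran between 1.21-fold for SRF and 3.86-fold for ACTA2, and 4 of the 10 genes were at least 2-fold higher. All 10 were expressed above the low-count filter, with 23 to 18521 reads per sample, and all 10 passed an adjusted p under 0.05. That rate is to be read against the 69.5% of 12973 tested genes called in either direction, 34.4% higher and 35.0% lower. Rises of at least 2-fold were called for 4.07% of tested genes, and falls of that size, which no member showed, for 3.84%. The median log2 fold change of the 10 genes was 0.72, against 0.00 for all tested genes. Against a null of a 1.2-fold change, 8 of the 10 passed (background 36.1%), all but SRF (adjusted p = 0.35) and TPM1. In no member did a PERK siRNA sample overlap a control siRNA sample in CPM, which held for 71.8% of tested genes. In bulk RNA, fewer cells expressing a gene and less of its RNA per cell cannot be told apart.

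**Figure D1:**
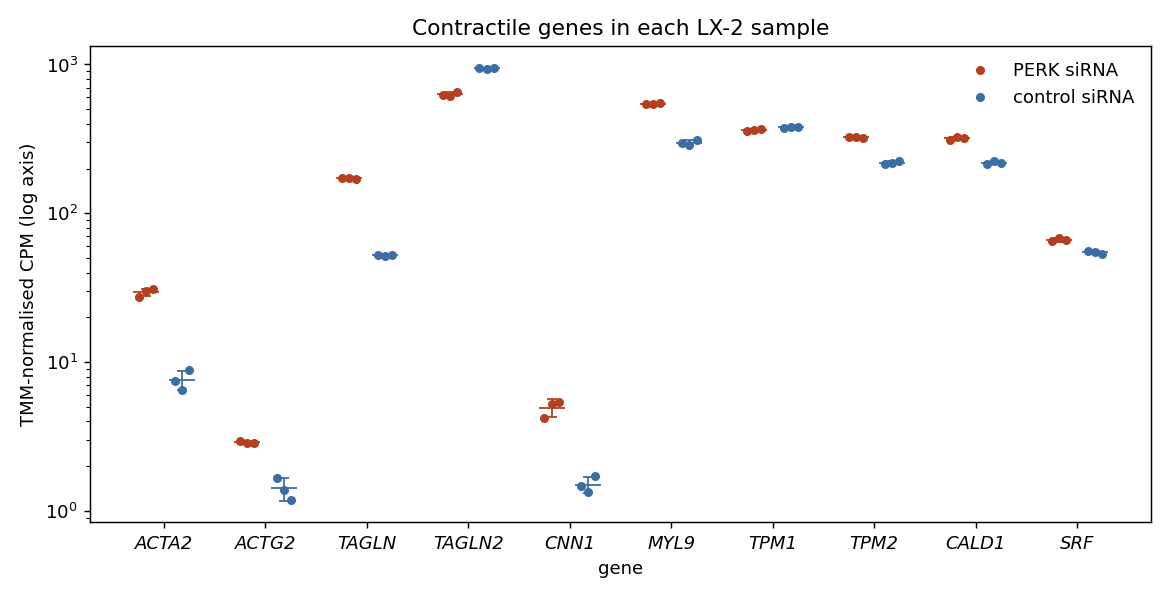
TMM-normalised CPM (log axis) of the 10 contractile genes in each LX-2 sample, PERK siRNA left of control siRNA for each gene; points are samples, dashes and bars the mean and SD of 3. The groups are apart for every gene, with the widest gap for ACTA2 (29.4 CPM with PERK siRNA, 7.62 CPM with control siRNA), and TAGLN2 and TPM1 lie lower with PERK siRNA.

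The upstream sequences of 3 members are shown. Windows of ACTG2 and SRF held the CArG box, the element that SRF, itself a member, binds. The ACTA2 window shown held no such box, only matches to a relaxed form of it. RefSeq promoter windows (GRCh38.p14) were searched over the 250 bases before each annotated start. A CArG box is CC, then 6 bases that are all A or T, then GG, and reads as the same motif on either strand. A relaxed form allowed 1 of the 6 inner bases to be G or C. Capitals mark the matches in the ACTA2 window (chr10:88952774-88953023, minus strand), the ACTG2 window (chr2:73892758-73893007, plus strand) and the SRF window (chr6:43171019-43171268, plus strand), all written 5′ to 3′.
ACTA2: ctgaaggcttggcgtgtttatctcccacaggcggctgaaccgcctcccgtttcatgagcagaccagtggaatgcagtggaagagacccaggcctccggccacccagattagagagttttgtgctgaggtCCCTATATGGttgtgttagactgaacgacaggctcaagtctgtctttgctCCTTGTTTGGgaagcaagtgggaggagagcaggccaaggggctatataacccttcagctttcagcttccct
ACTG2: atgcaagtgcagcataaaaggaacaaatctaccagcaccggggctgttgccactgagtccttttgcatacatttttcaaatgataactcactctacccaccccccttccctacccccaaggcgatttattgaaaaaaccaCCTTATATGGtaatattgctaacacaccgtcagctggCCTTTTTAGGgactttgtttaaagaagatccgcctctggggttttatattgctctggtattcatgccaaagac
SRF: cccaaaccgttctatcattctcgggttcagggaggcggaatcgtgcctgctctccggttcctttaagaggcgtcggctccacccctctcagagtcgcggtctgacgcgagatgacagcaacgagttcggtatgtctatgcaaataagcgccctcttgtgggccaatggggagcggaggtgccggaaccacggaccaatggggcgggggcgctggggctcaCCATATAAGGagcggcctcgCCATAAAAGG
The ACTG2 window held 2 CArG boxes, CCTTATATGG and CCTTTTTAGG, which began 110 and 73 bases before the start. The SRF window also held 2, CCATATAAGG and CCATAAAAGG, beginning 30 and 10 bases before it. In the ACTA2 window both matches were of the relaxed form, CCCTATATGG at 121 bases and CCTTGTTTGG at 71 bases. The search matched 8 of the 10 genes, with 16 windows, and windows of TAGLN and MYL9 were not analysed here. Of the other windows only 1 of CALD1 held a relaxed match. Over all 35116 windows of the table, 1.16% held a CArG box and 7.04% a box or its relaxed form. A match describes the letters of the window and is no evidence of binding in these cells.

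ACTA2 had the largest fold change of the 10 genes. It encodes α-smooth muscle actin, the usual marker of an activated stellate cell (ENSG00000107796; GRCh38 chromosome 10, 88935074 to 88991339, minus strand). It had 27.5, 30.0 and 30.9 CPM in the PERK siRNA samples, against 7.48, 6.54 and 8.85 CPM in the control siRNA samples. The lowest PERK siRNA sample was thus well above the highest control siRNA sample. The log2 fold change was 1.95 (SE 0.083, adjusted p = 7.9e-18), a size reached or passed by 0.432% of tested genes. The gene was still scarce, with 490 to 593 reads per PERK siRNA sample and 122 to 171 per control siRNA sample.

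ACTA2 overlaps other genes. Of its exon bases in GENCODE v29, 12.8% overlap exons of FAS, the death receptor gene on the opposite strand, and 17.3% those of the antisense gene ACTA2-AS1. FAS moved the other way, at 12.2, 15.7 and 15.3 CPM with PERK siRNA and 19.7, 22.7 and 20.5 CPM with control siRNA (log2 fold change -0.54, SE 0.082, adjusted p = 3.1e-06). The deposited tables also give the reads counted as unique, a term they do not define. Of the ACTA2 reads, 95.9% were counted as unique in the PERK siRNA samples and 94.3% in the control siRNA samples, and on unique reads the log2 fold change was 1.97 (SE 0.08).

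ACTG2, the γ-smooth muscle actin typical of gut muscle, was much rarer (ENSG00000163017; chromosome 2, 73892314 to 73919865, plus strand). It had 2.97, 2.87 and 2.86 CPM with PERK siRNA, against 1.68, 1.39 and 1.19 CPM with control siRNA. These are 53 to 56 and 23 to 33 reads, all counted as unique, and the 3 PERK siRNA values lie close together while the control siRNA values spread. The log2 fold change was 1.02 (SE 0.20, adjusted p = 6.1e-05).

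Against the other actins, the muscle isoforms stayed a small part. ACTA1, the skeletal muscle actin, had at most 2 reads in a PERK siRNA sample and 1 in a control siRNA sample, under the floor. ACTC1, the cardiac actin, had 0.280, 0.256 and 0.833 CPM with PERK siRNA and 1.07, 0.751 and 0.673 CPM with control siRNA and did not pass (log2 fold change -0.85, SE 0.40, adjusted p = 0.062), but passed without PERK siRNA sample 3 (log2 change -1.61, adjusted p = 0.0042), by limma-voom and on unique reads. Of the cytoplasmic isoforms, ACTG1 rose (5448 ± 55.2 CPM against 4358 ± 55.5 CPM in control siRNA samples; SD, n = 3 each; log2 change 0.32, adjusted p = 1.7e-13). ACTB had 5231 ± 91.3 CPM with PERK siRNA and 5052 ± 91.2 CPM with control siRNA (SD, n = 3 each; log2 change 0.05, adjusted p = 0.055), and 8 of the alternative fits put it past the threshold at 0.05 to 0.07.

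Shares of a family were taken from the deposited TPM, which scale reads by exon length so that genes can be compared. ACTA2 made up 0.534, 0.592 and 0.595% of the TPM of the 6 actin genes with PERK siRNA and 0.164, 0.148 and 0.195% with control siRNA. The difference of 0.405 percentage points had an exact two-sided permutation p of 0.1, the smallest that 3 against 3 samples allow. All 4 muscle actins together made up 0.616 ± 0.0376% of actin TPM with PERK siRNA and 0.209 ± 0.0218% with control siRNA (SD, n = 3 each; exact permutation p = 0.1). ACTB and ACTG1 thus held nearly all actin mRNA in either group.

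**Figure D2:**
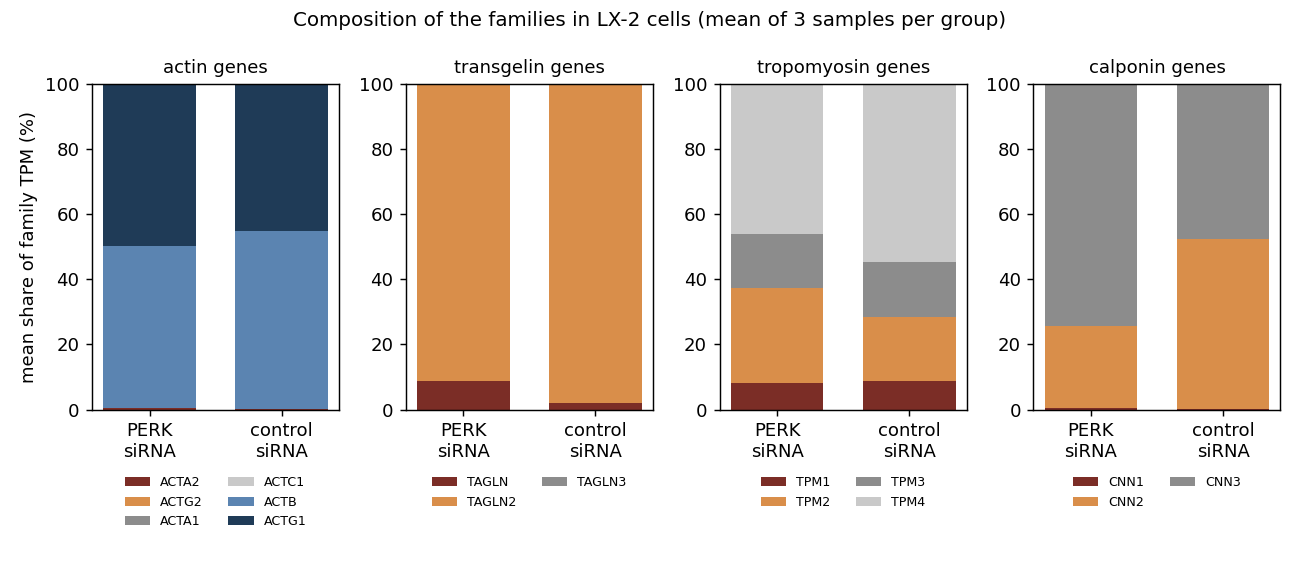
Mean share (%) of each gene in the summed TPM of its family, PERK siRNA left of control siRNA, 3 samples per group. TAGLN takes 8.69% of transgelin TPM with PERK siRNA and 1.90% with control siRNA, CNN3 takes 74.4% and 47.6% of calponin TPM, TPM2 takes 29.1% and 19.7% of tropomyosin TPM, and the muscle actins are too small a share to see.

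The transgelin paralogs moved in opposite directions. TAGLN encodes transgelin, or SM22, an actin-binding protein and early smooth muscle marker (ENSG00000149591; chromosome 11, 117199321 to 117204782, plus strand). It had 173.2, 171.5 and 170.2 CPM with PERK siRNA, against 52.4, 52.1 and 52.4 CPM with control siRNA. Samples within each group differed little, by comparison with the 3.28-fold gap between groups. The log2 fold change was 1.71 (SE 0.032, adjusted p = 4.5e-27), reached or passed by 0.832% of tested genes.

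A large part of the TAGLN reads were not counted as unique. Unique reads were 61.4% of the total in PERK siRNA samples and 61.1% in control siRNA samples, and on unique reads the log2 fold change was 1.72 (SE 0.04), so the change was as large without the other reads. PCSK7, a proprotein convertase gene on the opposite strand, overlaps 11.4% of the TAGLN exon bases. It also had few unique reads, 61.3% with PERK siRNA and 63.8% with control siRNA. PCSK7 rose less (64.9 ± 2.13 CPM against 53.1 ± 0.319 CPM in control siRNA samples; SD, n = 3 each; log2 change 0.29, adjusted p = 1.8e-07). The number of reads not counted as unique was 1233 to 1260 for TAGLN and 461 to 485 for PCSK7 with PERK siRNA, and 380 to 403 for TAGLN and 357 to 377 for PCSK7 with control siRNA. Whether these are the same reads was not tested.

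TAGLN2, the widely expressed paralog found in many cell types, fell (ENSG00000158710; chromosome 1, 159918107 to 159925732, minus strand). It had 621.9, 615.8 and 654.5 CPM with PERK siRNA, against 942.1, 929.9 and 952.4 CPM with control siRNA. The groups were far apart next to their own spread. The log2 fold change was -0.58 (SE 0.025, adjusted p = 2.0e-18). TAGLN made up 8.87, 8.87 and 8.33% of transgelin TPM with PERK siRNA and 1.91, 1.92 and 1.89% with control siRNA, a difference of 6.79 percentage points (exact permutation p = 0.1). On unique reads per exon length the difference was 4.35 points. TAGLN3, the neuronal paralog, had 0 reads in each PERK siRNA sample and 1 in each control siRNA sample.

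CNN1 encodes basic calponin, which binds actin and slows the actomyosin ATPase (ENSG00000130176; chromosome 19, 11538717 to 11550323, plus strand). Its CPM were 4.20, 5.27 and 5.41 with PERK siRNA and 1.48, 1.34 and 1.71 with control siRNA. The groups were clearly apart although the gene had only 75 to 104 reads per PERK siRNA sample and 25 to 33 per control siRNA sample (log2 fold change 1.72, SE 0.18, adjusted p = 1.0e-09). The other calponins split: CNN3, the acidic calponin of non-muscle cells, rose to 570.1 ± 4.07 CPM, against 206.8 ± 4.59 CPM with control siRNA (SD, n = 3 each; log2 change 1.46, adjusted p = 8.9e-28), and CNN2 fell (log2 change -0.24, adjusted p = 5.4e-09). CNN1 was 0.589 ± 0.0797% of calponin TPM with PERK siRNA and 0.315 ± 0.0309% with control siRNA (SD, n = 3 each; exact permutation p = 0.1).

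MYL9 encodes the regulatory light chain of smooth muscle myosin, whose phosphorylation starts contraction (ENSG00000101335; chromosome 20, 36541484 to 36551447, plus strand). It was an abundant member, with 542.9, 541.6 and 549.6 CPM in PERK siRNA samples and 297.9, 287.3 and 311.9 CPM in control siRNA samples. No sample of either group came near the other group (log2 fold change 0.87, SE 0.027, adjusted p = 6.7e-22). MYLK, the kinase that phosphorylates this chain, rose as well (637.0 ± 6.99 CPM against 441.7 ± 5.64 CPM in control siRNA samples; SD, n = 3 each; log2 change 0.53, adjusted p = 4.2e-18). MYL12A, a non-muscle regulatory light chain gene, fell (log2 change -0.31, adjusted p = 9.0e-12).

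CALD1 encodes caldesmon, which blocks myosin from actin until calcium rises (ENSG00000122786; chromosome 7, 134744252 to 134970728, plus strand). It had 312.8, 324.6 and 320.7 CPM with PERK siRNA, against 214.3, 223.3 and 217.1 CPM with control siRNA. The rise was of the same order as that of MYLK and TPM2 (log2 fold change 0.55, SE 0.026, adjusted p = 2.0e-17). The counts join all isoforms, so the smooth muscle and the non-muscle form of caldesmon cannot be told apart here.

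The tropomyosins, which lie along the actin filament, changed unequally. TPM2 (ENSG00000198467; chromosome 9, 35681992 to 35690121, minus strand) had 327.6, 325.8 and 323.0 CPM with PERK siRNA, against 214.5, 217.2 and 225.5 CPM with control siRNA (log2 fold change 0.57, SE 0.026, adjusted p = 6.4e-18). TPM1 (ENSG00000140416; chromosome 15, 63042632 to 63071915, plus strand) had 356.7, 363.1 and 370.4 CPM with PERK siRNA, against 376.6, 383.0 and 380.5 CPM with control siRNA. Its groups were apart by only a few CPM, and the change was 0.957-fold (log2 fold change -0.06, SE 0.024, adjusted p = 0.021). That call was lost without PERK siRNA sample 1 (adjusted p = 0.10) and with upper-quartile scaling (adjusted p = 0.069). Of the TPM1 exon bases, 16.1% overlap the antisense gene TPM1-AS and 5.37% another antisense gene, and whether the counting used strand is not given in the sources used here.

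TPM4, a tropomyosin of non-muscle cells, fell (1130 ± 6.76 CPM against 1330 ± 16.6 CPM in control siRNA samples; SD, n = 3 each; log2 change -0.24, adjusted p = 1.6e-10), and TPM3 did not pass (log2 change -0.02, adjusted p = 0.50). TPM2 took 29.1 ± 0.26% of tropomyosin TPM with PERK siRNA and 19.7 ± 0.347% with control siRNA (SD, n = 3 each). The summed tropomyosin TPM were close, at 1546 ± 13.2 with PERK siRNA and 1541 ± 9.73 with control siRNA (SD, n = 3 each). TPM1 was 8.20 ± 0.14% of the family with PERK siRNA and 8.64 ± 0.163% with control siRNA (SD, n = 3 each; exact permutation p = 0.1).

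**Figure D3:**
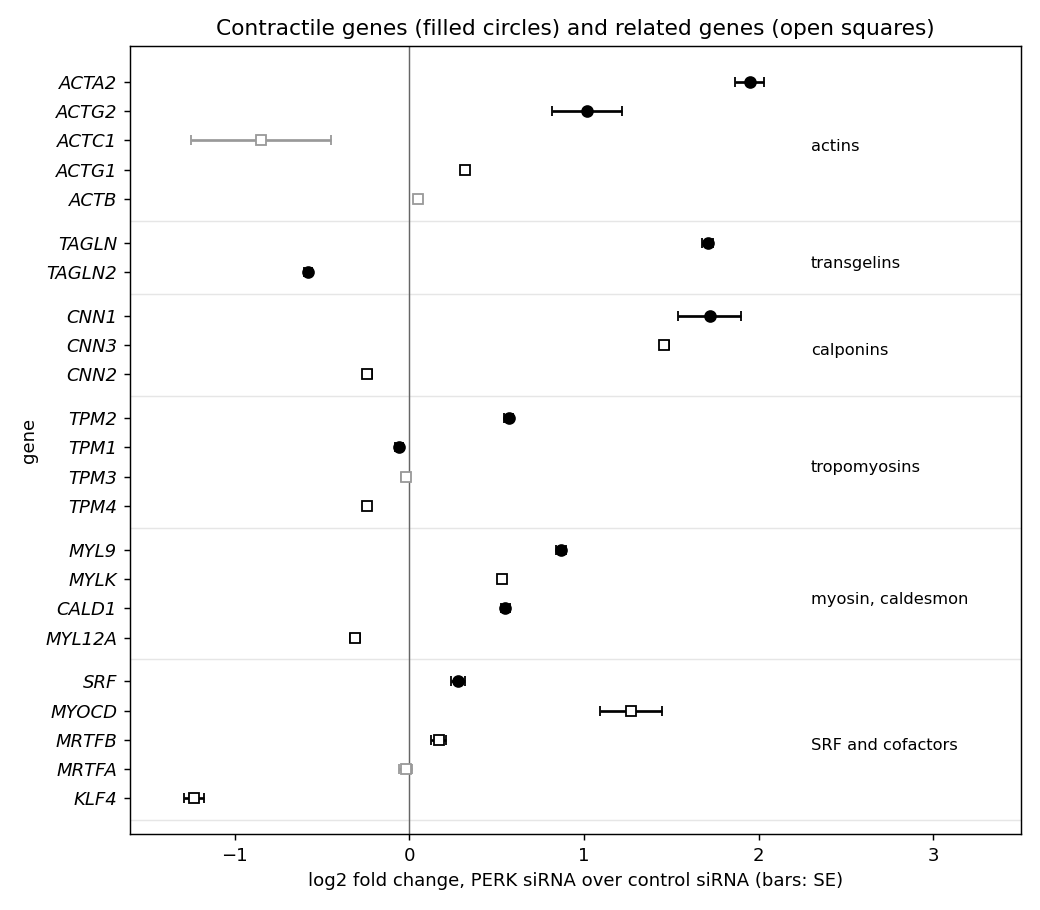
Log2 fold change (PERK siRNA over control siRNA, bars SE) of the contractile genes (filled circles) and of related genes of the same family or step (open squares); grey marks an adjusted p of 0.05 or more. ACTA2 (1.95), CNN1 (1.72) and TAGLN (1.71) lie farthest right, while TAGLN2 (-0.58) and KLF4 (-1.23) lie to the left of 0.

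SRF, the transcription factor that binds the CArG box, rose slightly (ENSG00000112658; chromosome 6, 43171299 to 43181507, plus strand). It had 64.8, 68.3 and 66.0 CPM with PERK siRNA, against 55.6, 55.4 and 53.5 CPM with control siRNA (log2 fold change 0.28, SE 0.039, adjusted p = 3.0e-07). MYOCD, encoding myocardin, the muscle-restricted SRF coactivator, was scarce but rose to 4.15, 3.99 and 4.73 CPM with PERK siRNA, against 1.93, 1.82 and 1.55 CPM with control siRNA. Its log2 fold change was 1.27 (SE 0.18, adjusted p = 2.2e-07).

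The other SRF partners differed from myocardin in their values. MRTFA, a coactivator held in the cytoplasm by monomeric actin, had 71.1 ± 2.08 CPM with PERK siRNA and 72.0 ± 0.48 CPM with control siRNA (SD, n = 3 each; log2 change -0.02, SE 0.036, adjusted p = 0.64). MRTFB, its paralog, rose slightly (log2 change 0.17, SE 0.043, adjusted p = 0.00081). KLF4, known in rodent smooth muscle as a repressor of contractile genes, fell to 20.1, 18.8 and 20.4 CPM with PERK siRNA, against 46.0, 49.9 and 43.5 CPM with control siRNA (log2 change -1.23, SE 0.057, adjusted p = 1.6e-17). ELK4, a growth factor-responsive SRF partner (log2 fold change 0.74), the LIM protein gene FHL1 (0.35) and ARID5B (0.49) rose. The ELK and FHL paralogs of the list, chosen after their values were seen, did not rise. ELK1 (-0.26, adjusted p = 8.8e-09) and FHL2 (-0.13, adjusted p = 0.0012) fell, and ELK3 did not pass (-0.03, adjusted p = 0.27). In all, 6 of 14 tested cofactors and regulators of SRF rose and 4 fell, with a median log2 fold change of -0.03. Among all tested genes 34.4% rose and 35.0% fell.

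Levels per exon length placed the genes in a wide range. With PERK siRNA the order of mean TPM was TAGLN2 (1135), MYL9 (674.0), TPM2 (449.6), CALD1 (181.9), TPM1 (126.7), TAGLN (108.0), ACTA2 (58.5), SRF (54.5), CNN1 (6.85) and ACTG2 (3.01). With control siRNA it was TAGLN2 (1702), MYL9 (371.5), TPM2 (303.9), TPM1 (133.1), CALD1 (124.8), SRF (45.2), TAGLN (33.0), ACTA2 (15.2), CNN1 (2.09) and ACTG2 (1.48). So CALD1 stood above TPM1, and TAGLN and ACTA2 above SRF, only in the order of the PERK siRNA samples. ACTA2 and SRF did not differ beyond their spread there, with sample values of 54.2 to 61.1 and 52.9 to 56.5 TPM. The sample ranges of all other neighbours in both orders were apart. The deposited exon length is that of the authors' annotation and sets this scale: for TAGLN it is 5523 bases, against 3917 exon bases in GENCODE v29.

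**Figure D4:**
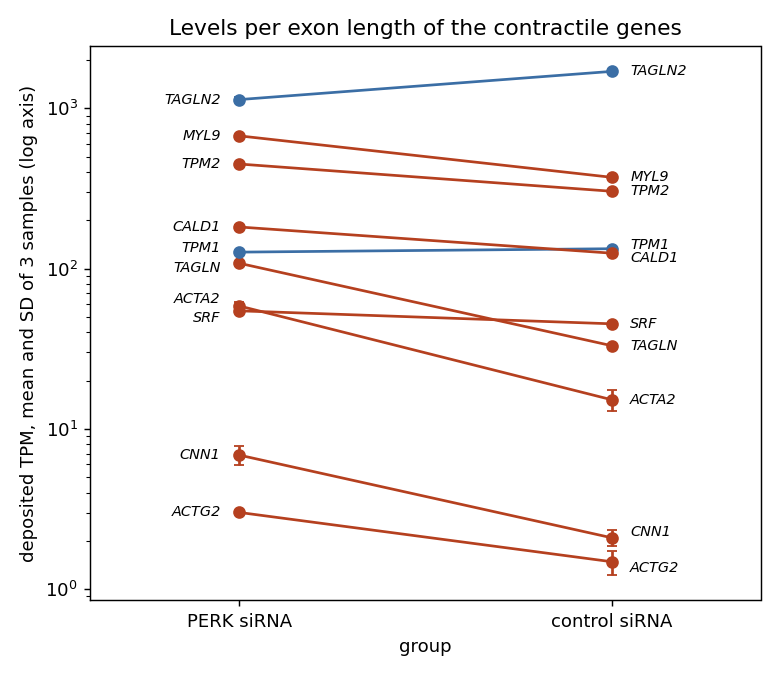
Deposited TPM (log axis) of the contractile genes, mean and SD of 3 samples, PERK siRNA left and control siRNA right; red lines mark a higher and blue lines a lower mean with PERK siRNA. The lines of TAGLN and ACTA2 cross that of SRF, with ACTA2 at 58.5 TPM with PERK siRNA and 15.2 TPM with control siRNA.

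Beyond the 10 genes, both directions occurred in the wider lists. Of 13 tested genes in a list of other smooth muscle markers 8 rose and 3 fell, with a median log2 fold change of 0.22. The counts of each list are to be read against the 34.4% of all tested genes that rose and the 35.0% that fell. NEXN, encoding the actin-binding protein nexilin (log2 change 0.75, adjusted p = 1.3e-13), TNS1, encoding the focal adhesion protein tensin (log2 change 0.55, adjusted p = 3.1e-16), and LPP (log2 change 0.35, adjusted p = 1.5e-08) rose. PDLIM7 fell (log2 change -0.33, adjusted p = 8.2e-11). Chosen after its values were seen, LMOD1, the smooth muscle leiomodin gene that helps nucleate actin filaments, rose but stayed scarce, with 1.96, 1.59 and 1.72 CPM with PERK siRNA and 0.254, 0.429 and 0.414 CPM with control siRNA (log2 change 2.24, SE 0.31, adjusted p = 3.0e-07).

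Of 12 myosin chain, kinase and phosphatase genes 7 rose and 2 fell (median 0.11), against 34.4% and 35.0% of all tested genes. Besides MYLK, the non-muscle myosin heavy chain genes MYH14 (log2 change 0.64, adjusted p = 3.5e-09) and MYH10 (log2 change 0.22, adjusted p = 8.7e-09) rose. MYH11, the smooth muscle myosin heavy chain gene, chosen after its values were seen, had 0.617, 0.921 and 0.780 CPM with PERK siRNA and 0.153, 0.268 and 0.621 CPM with control siRNA. Its groups overlapped, and its call (log2 change 1.15, SE 0.42, adjusted p = 0.017) did not hold in DESeq2 (adjusted p = 0.13), nor when PERK siRNA sample 2 was left out (0.085), control siRNA sample 1 (0.12) or control siRNA sample 2 (0.060).

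Of 18 focal adhesion and actin crosslinking genes listed as SRF targets 9 rose and 8 fell (median 0.05). Among all tested genes 34.4% rose and 35.0% fell. CCN2, encoding connective tissue growth factor, rose to 90.6 ± 0.777 CPM, against 45.5 ± 2.58 CPM with control siRNA (SD, n = 3 each; log2 change 1.00, adjusted p = 3.8e-19), and FILIP1L rose (log2 change 0.93, adjusted p = 1.1e-18). WDR1, encoding a cofactor of cofilin in filament disassembly, fell to 782.8 ± 5.15 CPM, against 1563 ± 24.1 CPM with control siRNA (SD, n = 3 each; 0.501-fold, adjusted p = 4.7e-25), and SVIL, encoding the membrane-linked actin binder supervillin, fell (log2 change -1.20, adjusted p = 3.4e-19).

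Immediate early genes, which SRF serves together with the ELK factors, included more that fell than rose. Of 9 tested, 5 fell and 2 rose, with a median of -0.48, against 35.0% of all tested genes that fell and 34.4% that rose. EGR2 fell to 0.617, 0.717 and 0.468 CPM with PERK siRNA, against 2.90, 3.16 and 3.62 CPM with control siRNA (log2 change -2.41, adjusted p = 6.1e-10), and IER2 (log2 fold change -0.80), JUNB (-0.69) and the survival gene MCL1 (-0.60) fell. The 2 that rose were EGR1 (log2 change 1.00, adjusted p = 6.9e-06) and NR4A1 (log2 change 0.85, adjusted p = 2.2e-06), both chosen after their values were seen. FOS (log2 change -0.28, adjusted p = 0.17) and FOSB (log2 change 0.02, adjusted p = 0.93), also chosen after their values were seen, did not pass.

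**Figure D5:**
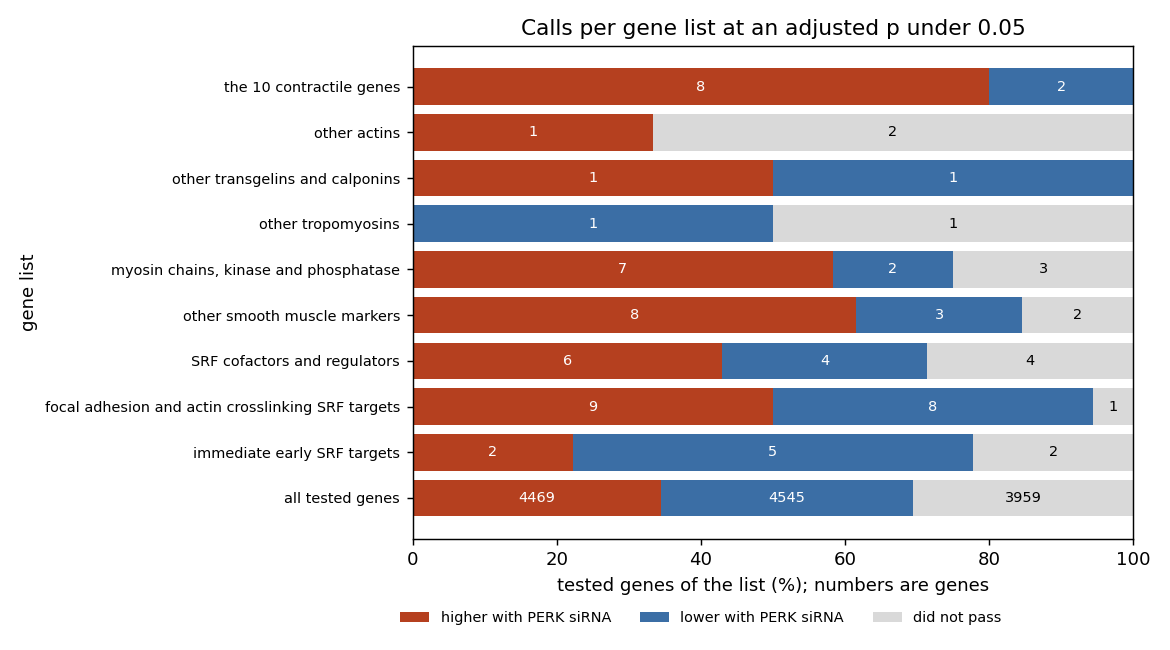
Share of tested genes (%) called higher or lower with PERK siRNA, or not passing, in the 10 contractile genes, in 8 related lists without those 10, and in all tested genes; numbers are genes. The contractile genes have 8 higher and 2 lower, the immediate early SRF targets 2 higher and 5 lower, and all tested genes 4469 higher and 4545 lower.

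Of 8 tested markers of vascular smooth muscle and pericytes, 7 rose and 0 fell, against 34.4% of all tested genes that rose. The 7 include MYH11, whose call did not hold in the fits named above. The summed level of the 8 was 330.9 to 338.2 CPM with PERK siRNA and 260.8 to 278.9 CPM with control siRNA, of which most was CSPG4 (298.6 ± 4.81 CPM and 247.7 ± 9.05 CPM; SD, n = 3 each). The list shares MYH11, LMOD1 and MYOCD with those above. RGS5 (log2 change 0.99, adjusted p = 8.2e-05), KCNJ8 (log2 change 0.75, adjusted p = 0.00030) and NOTCH3 (log2 change 0.46, adjusted p = 1.5e-06) rose, and MCAM did not pass (log2 change 0.66, adjusted p = 0.098). LX-2 expressed 10 of 12 stellate markers above the filter, of which 4 rose and 4 fell, against 34.4% and 35.0% of all tested genes. The 12 summed to 7732 to 7840 CPM with PERK siRNA and 7277 to 7548 CPM with control siRNA. Most of it was VIM (3660 ± 38.7 CPM and 3072 ± 62.3 CPM) and COL1A1 (2940 ± 13.3 CPM and 2910 ± 77.7 CPM; SD, n = 3 each). Of those that rose, COL1A2 changed most (27.1 ± 1.62 CPM and 11.8 ± 0.282 CPM; SD, n = 3 each). Of those that fell, the scarce HGF (log2 change -2.47) and COL3A1 (-0.89) changed most. The 8 skeletal and cardiac muscle markers summed to 100.2 to 103.1 CPM with PERK siRNA and 69.4 to 72.6 CPM with control siRNA, nearly all of it TNNT1, a slow skeletal troponin gene (100.1 ± 1.82 CPM and 70.9 ± 1.81 CPM; SD, n = 3 each). Of these 8, 2 were tested and 2 rose, TNNT1 (log2 change 0.50, adjusted p = 1.4e-13) and ACTN2 (log2 change 1.22, adjusted p = 0.0024). Their median log2 change was 0.86, against 0.87 for the vascular smooth muscle and pericyte markers. ACTN2 had 1.35, 1.18 and 0.780 CPM with PERK siRNA and 0.458, 0.375 and 0.569 CPM with control siRNA, MYOG, MYH7 and TNNI3 were at 0 in all samples, and CKM, TNNT2 and MYOD1 had at most 1 read in any sample. Endothelial markers summed to 12.1 to 13.6 CPM with PERK siRNA and 21.8 to 22.7 CPM with control siRNA, with CLEC4G at 0. Of 4 tested, PECAM1 fell (0.632 ± 0.113 CPM with PERK siRNA and 8.95 ± 0.0502 CPM with control siRNA; SD, n = 3 each; log2 change -3.80, adjusted p = 5.8e-18), while KDR, TIE1 and VWF did not pass. KDR averaged 2.03 CPM with PERK siRNA and 1.49 CPM with control siRNA. The part of these cell type markers in the changes of the contractile genes was not tested.

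Among the better expressed genes, those most like ACTA2 and TAGLN over the 6 samples were not genes of the contractile lists. The scarce CNN1 (log2 fold change 1.72), ACTG2 (1.02), MYOCD (1.27) and LMOD1 (2.24) were under the level required and could not be neighbours. Likeness was the Euclidean distance between log2 CPM values centred on each gene's mean, over 9984 genes whose log2 CPM averaged 3 or more, and with 6 samples in 2 groups it mostly reflects the size of the group difference. Nearest to ACTA2 were GEMIN5 (distance 0.22), RHOQ (0.30), MDFIC (0.30), MBNL1 (0.30) and FBLN7 (0.32). Nearest to TAGLN were SGPL1 (0.06), TAX1BP3 (0.06), FAM53B (0.08), CHIC1 (0.09) and ARFIP1 (0.09). Only 5.23% of the TAX1BP3 reads and 77.5% of the RHOQ reads were counted as unique.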

How the data were processed

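RNA of 3 PERK siRNA and 3 control siRNA samples of LX-2 cells was sequenced after a directional library kit, per the labels' protocols. The authors deposited a count of all exon reads and of those termed unique for each gene, and TPM, per the file headers. The submitters' processing notes name the build hg38. Which aligner, read counter or gene annotation was used, and whether counting used strand, is not given in the sources used here. Deposited TPM equalled total exon reads per exon length scaled to a constant total, to within a relative difference of 7.1e-08.

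Total exon reads were tested with edgeR 4.0.16 (R 4.3.3): TMM factors, the default expression filter (12973 genes), robust quasi-likelihood test, no covariate, Benjamini-Hochberg adjustment over all tested genes at 0.05. The SE is the absolute log2 fold change over the square root of the F statistic. Shares of TPM were compared with exact permutation tests. DESeq2 1.42.0, limma-voom (limma 3.58.1), unique reads and other scalings, filters and thresholds were alternatives. The procedure was also run on simulated data. Far fewer genes were changed there than were called here, so it cannot gauge the test at that share. Replicates differed by more than counting noise (chi-square per degree of freedom 1.64 to 2.30 within groups, 61.7 to 67.4 between).

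The genes and lists were chosen with earlier results of these data known. The genes named are the 10, EIF2AK3, MYOCD, MRTFA, MRTFB, their paralogs, genes overlapping their exons, for each list up to 4 genes of lowest adjusted p, and the 5 nearest patterns to ACTA2 and TAGLN. PDGFRB, VIM and the other cell type markers come from marker lists, and where another gene falls outside this rule the text says that its values were seen first. The result of 1 list is not reported here. Gene places and overlaps are from GENCODE v29 (GRCh38, the assembly of hg38). Upstream sequences are from RefSeq (GRCh38.p14), searched in Python 3.11.15.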

Additional observations from a re-analysis of the deposited data

How the results depend on the processing

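ACTA2 (1.85 to 2.07), TAGLN (1.70 to 1.73), CNN1 (1.64 to 1.82), ACTG2 (0.91 to 1.16), MYL9 (0.84 to 0.89), TPM2 (0.55 to 0.59), CALD1 (0.53 to 0.57) and TAGLN2 (-0.60 to -0.56) kept their log2 direction and their call under every alternative run. SRF (0.25 to 0.29) did so except against a 1.2-fold change (adjusted p = 0.35), which left 7 or 8 members called higher across alternatives. TPM1 (-0.08 to -0.05) lost its call against a 1.2-fold change, with upper-quartile factors, at an adjusted p under 0.01 and without PERK siRNA replicate 1, each of which left 1 member called lower in place of 2; the cause was not tested. Leaving out samples gave 1 to 2 members called lower. Over all genes 9014 were called, 4689 against a 1.2-fold change and 8543 to 8721 with a sample left out. The difference in the TAGLN share was 4.35 percentage points on unique reads, where the TAGLN reads are fewer by construction, and the other shares moved by less than 1 SD on unique reads or with any sample left out. MRTFA, which did not pass, ranged between -0.03 and 0.01 with a sample left out, and was 0.01 without PERK siRNA replicate 3 (adjusted p = 0.92). With the replicate number as a block, 9003 genes, 8 members higher and 2 members lower were called. Same-numbered samples did not deviate together (r of 0.0106, -0.0323 and -0.0294 across genes), and not every sample correlated best with its own number. The labels do not say whether same-numbered samples shared a culture or a batch, and this was not tested. ACTG2 and CNN1, with 23 to 104 reads per sample, have the widest errors.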

Other observations

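CArG boxes were also looked up over all genes. Of the 10453 tested genes with an upstream window, 156 held a CArG box within 250 bases of a start, and of these 61 rose (39.1%) and 63 fell (40.4%), with a median log2 fold change of 0.01. Among all 10453 genes 34.8% rose and 35.5% fell, with a median of 0.00. SRF and ACTG2 were among the genes with a box that rose. The largest rise with a box was that of CNR1, the cannabinoid receptor gene (1.62), and the largest fall that of EGR2 (-2.41), both chosen after their values were seen.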
